A study of Mus musculus with 31 samples.

Results

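The genes described here encode enzymes of the methionine cycle and of transsulfuration, together with methyltransferases that draw on the cycle in liver. The 10 members are Mat1a, Gnmt, Ahcy, Bhmt, Bhmt2, Pemt, Nnmt, Cbs, Cth and Cdo1. They were taken by gene name, as every probe of the normalised table that carries one of these names, which gave 10 of 23968 genes and 16 of 36059 probes. Mat1a, Gnmt, Ahcy, Bhmt2, Cbs and Cth each have 1 probe, Pemt and Cdo1 have 2, and Bhmt and Nnmt have 3. In liver, methionine is converted to S-adenosylmethionine, which gives its methyl group to many acceptors and leaves S-adenosylhomocysteine, and this is split to homocysteine. Homocysteine is either methylated back to methionine, in part with betaine as the donor, or passed through cystathionine to cysteine, from which taurine, sulfate and glutathione are made. ChREBP, encoded by Mlxipl, is a transcription factor that responds to carbohydrate and is known in liver for its control of glycolytic and lipogenic genes.

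The livers came from male C57BL6/J mice, and each mouse gave RNA for 1 single-colour Agilent array. The mice were fasted for 24 h and then refed for 18 h with food and water holding 20% glucose. ChREBPβ-deficient mice (n = 8), which carry a whole-body CRISPR deletion of the exon specific to the ChREBPβ isoform, were set against 8 WT littermates, and total ChREBP-KO mice (n = 7), in which Mlxipl is disrupted in the whole body, against 8 WT littermates of their own line. The age of the mice is not given in the sources used here. As both deletions act in every tissue, a difference in liver does not locate the loss to liver cells. The arrays were scanned on 2 days, with 15 and 16 arrays, and each group was spread over both.

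Mlxipl itself was read first, as a check of the genotypes. Its brightest probe (A_55_P2119957) had log2 signals of 13.89, 14.11 and 14.30 (lowest, median and highest) in total ChREBP-KO mice and of 15.14, 15.25 and 15.48 in their WT littermates. In ChREBPβ-deficient mice the same values were 14.40, 14.64 and 14.84, against 14.88, 15.06 and 15.33 in WT littermates. Neither knockout group overlapped its WT group. The log2 difference was -1.16 ± 0.0735 (SE; limma adjusted p = 8.05e-13) for total loss and -0.455 ± 0.071 (limma adjusted p = 0.0152) for loss of the β isoform. The latter did not pass in 7 of 21 alternatives, which include a fixed block for slide (-0.518, adjusted p = 0.3), each scan day alone (-0.302 and -0.57, adjusted p = 1.0 and 0.0839) and only the 2 groups (adjusted p = 0.218), nor in 4 of 31 fits without a single array. The former passed in all of them. With total loss, probe A_55_P2728555 fell by 0.594 (limma adjusted p = 0.00313), and probe A_55_P2045158 differed by -0.0482 (limma adjusted p = 0.603). With loss of the β isoform these probes differed by -0.458 (limma adjusted p = 0.909) and -0.0588, and neither passed. None of the 3 probes is known here to lie in the deleted exon, so they show lower Mlxipl signal and do not check the deletion itself. Hepatocyte markers, with Alb the brightest of 9 measured, had a summed log2 level between 20.63 and 20.82 on the 31 arrays. Of the 9, 8 were well above background on all arrays, as in liver tissue.

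In total ChREBP-KO mice, 4 of the 10 genes were higher than in WT littermates and 0 were lower, by limma with adjusted p below 0.05 over all probes. The 4 genes were Ahcy, Bhmt, Cth and Cdo1, through 6 of the 16 probes. Over all 23968 genes, 17.3% were higher and 17.1% lower by the same rule, so genes that passed the test were common in this comparison. The median log2 difference was 0.115 over the 10 genes, at the brightest probe of each, and 0.00776 over all genes. At an unadjusted p below 0.05, limma gave 4 genes higher and 0 lower, and the exact Mann-Whitney test 4 higher and 1 lower, Pemt. The unadjusted shares over all genes were 23.1% and 21.6% by limma and 19.6% and 19.5% by the Mann-Whitney test. These are whole-liver values, in which fewer cells of a type and less RNA per cell cannot be told apart. Mat1a, Gnmt, Bhmt2, Pemt, Nnmt and Cbs did not pass the test.

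**Figure D1:**
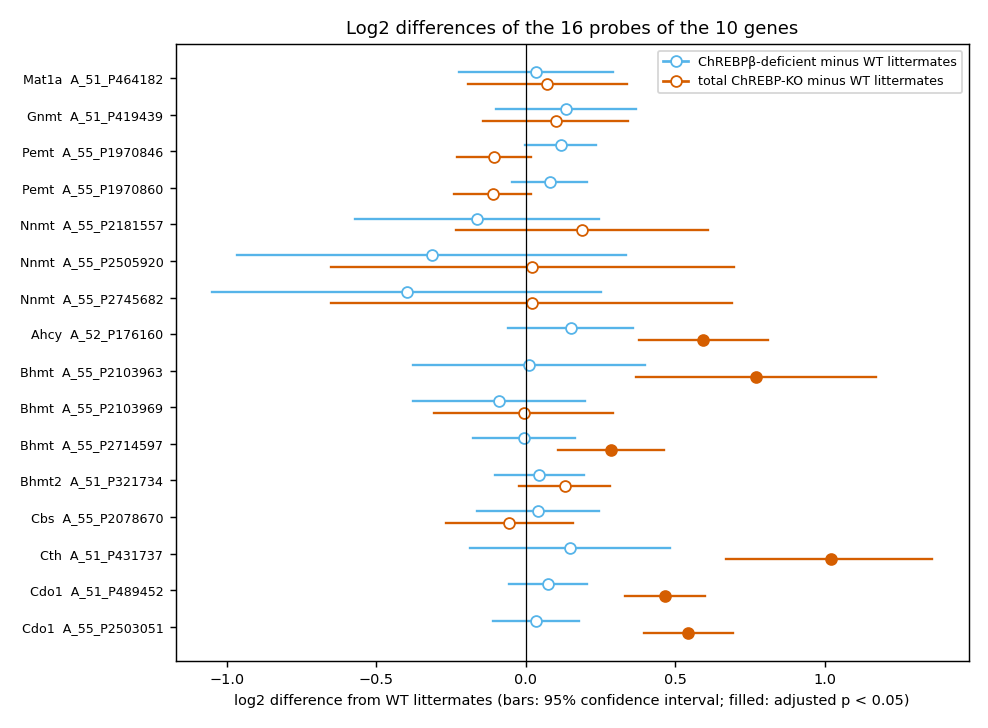
Log2 differences from WT littermates (x axis) of the 16 probes of the 10 genes (y axis) in ChREBPβ-deficient mice (blue) and total ChREBP-KO mice (orange), with bars for the 95% confidence interval and filled points for limma adjusted p below 0.05. The 6 filled points belong to Ahcy, Bhmt, Cth and Cdo1 in total ChREBP-KO mice.

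Cth, which cleaves cystathionine to give cysteine, had the largest difference of the 16 probes in total ChREBP-KO mice. Its log2 signal was 14.08, 14.46 and 15.10 (lowest, median and highest) in total ChREBP-KO mice and 13.02, 13.47 and 14.16 in WT littermates. The groups overlapped by a narrow margin, with 6 of 7 knockout mice above every WT littermate. The log2 difference was 1.02 ± 0.17 (SE), or 2.02-fold (limma adjusted p = 2.88e-05). It was 1.05 within scan day 1 (adjusted p = 0.0191) and 1.0 within scan day 2 (adjusted p = 0.000895).

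Cdo1 oxidises cysteine to cysteine sulfinate, the first step toward taurine and sulfate. Its brighter probe (A_51_P489452) had log2 signals of 15.37, 15.55 and 15.77 in total ChREBP-KO mice and 14.92, 15.14 and 15.27 in WT littermates. The second probe (A_55_P2503051) had 14.28, 14.57 and 14.83 against 13.78, 14.03 and 14.12. On both probes all 7 knockout mice lay above all 8 WT littermates. The log2 differences were 0.464 ± 0.0658 (SE; limma adjusted p = 2.52e-06) and 0.543 ± 0.0729 (limma adjusted p = 1.05e-06). Within scan day 1 they were 0.465 and 0.517 (adjusted p = 0.00164 and 0.000549), and within scan day 2 they were 0.457 and 0.565 (adjusted p = 0.0134 and 0.00893). Neither probe reached a 1.5-fold difference, at 1.38-fold and 1.46-fold. Cbs, which joins homocysteine and serine upstream of Cth, had a log2 difference of -0.0553 ± 0.104 (SE; limma adjusted p = 0.74), with a 95% confidence interval from -0.267 to 0.157. Its signal lay between 15.91 and 16.30 in total ChREBP-KO mice, inside the WT range of 15.85 to 16.54.

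Ahcy splits S-adenosylhomocysteine, the product of methyl transfer, to homocysteine and adenosine. Its log2 signal was 10.68, 10.99 and 11.34 (lowest, median and highest) in total ChREBP-KO mice and 9.95, 10.40 and 10.93 in WT littermates. The groups overlapped, with 4 of 7 knockout mice above every WT littermate. The log2 difference was 0.594 ± 0.106 (SE), or 1.51-fold (limma adjusted p = 7.21e-05). Within scan day 2 it was 0.727 (adjusted p = 0.000222), and within scan day 1 it was 0.501 and did not pass the test (adjusted p = 0.0718).

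Bhmt methylates homocysteine with betaine as the donor, and Bhmt2 is its paralogue, which uses S-methylmethionine. On Bhmt probe A_55_P2103963 the log2 signal was 15.05, 16.23 and 16.68 in total ChREBP-KO mice and 14.48, 15.42 and 15.74 in WT littermates. On probe A_55_P2714597 it was 17.61, 18.02 and 18.12 against 17.16, 17.73 and 17.88. On each probe 6 of 7 knockout mice lay above every WT littermate and the lowest knockout mouse lay among the WT values. The log2 differences were 0.771 ± 0.197 (SE; limma adjusted p = 0.0033) and 0.285 ± 0.0863 (limma adjusted p = 0.0126). The dimmest Bhmt probe (A_55_P2103969), whose signal was only 2.44 to 5.33 times the local background, had a log2 difference of -0.00742 (limma adjusted p = 0.978), so the probes disagreed. On the bright probes the difference was larger within scan day 1, at 1.14 and 0.476 (adjusted p = 0.0015 and 0.0154), while within scan day 2 it was 0.387 and 0.0743 (adjusted p = 0.434 and 0.728). With slide as a fixed block neither probe passed the test (log2 differences 0.517 and 0.153, adjusted p = 0.0625 and 0.151), so the Bhmt result is the least settled of the 4. Probe A_55_P2714597 did not pass in 7 of 21 alternatives, which include processed and median signals scaled to the 75th percentile (adjusted p = 0.0627 and 0.0572), only the 2 groups (0.0505) and the adjusted Mann-Whitney test (0.0559). The probe of Bhmt2 differed by 0.13 ± 0.075 (SE; limma adjusted p = 0.206).

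**Figure D2:**
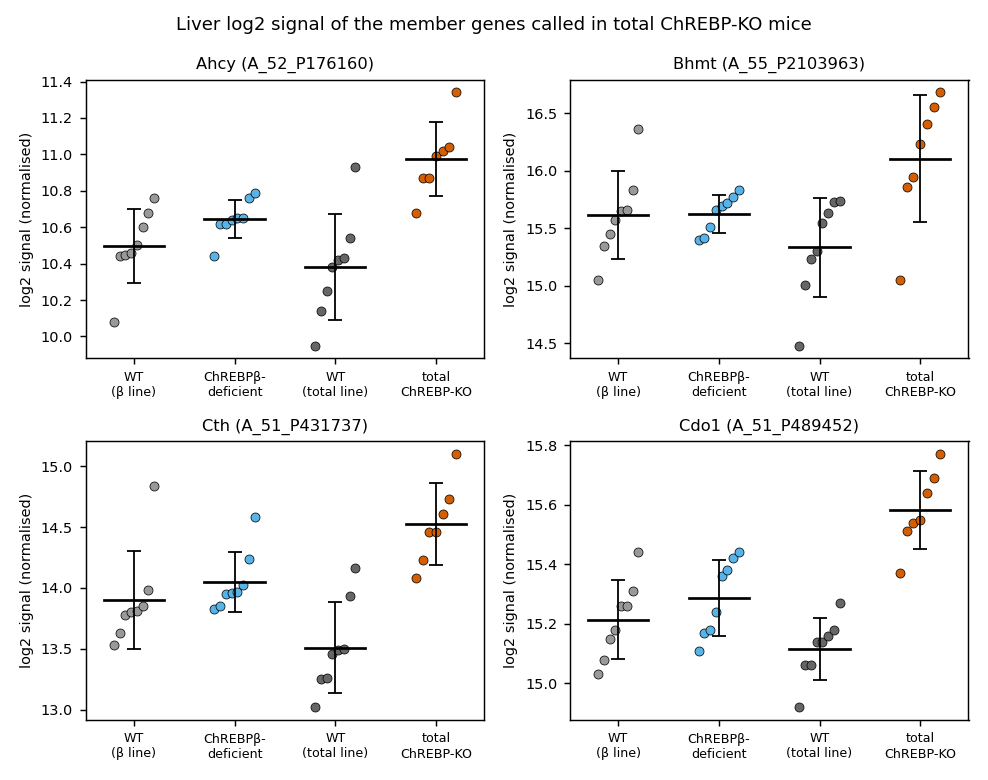
Normalised log2 signal (y axis) of Ahcy, Bhmt, Cth and Cdo1 in the 4 groups (x axis), 1 point per mouse, with the group mean and SD as a line and bar. Cdo1 is shown at probe A_51_P489452 and Bhmt at probe A_55_P2103963 (log2 difference 0.771 with total loss). The brightest Bhmt probe, A_55_P2714597, had a smaller difference (0.285) and is not shown. Total ChREBP-KO mice lie highest on average in each panel, and for Cdo1 all 7 lie above their 8 WT littermates.

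The enzyme that makes the methyl donor and the methyltransferases that use it did not pass the test in total ChREBP-KO mice. Mat1a, the liver's S-adenosylmethionine synthetase, differed by 0.0721 on the log2 scale (95% confidence interval -0.194 to 0.339; limma adjusted p = 0.73). Gnmt, which methylates glycine and thereby uses surplus S-adenosylmethionine, differed by 0.0992 (interval -0.143 to 0.341; limma adjusted p = 0.581). Both intervals leave room for differences of either sign. Without single arrays the difference ran from 0.00854 to 0.158 for Mat1a and from 0.0574 to 0.177 for Gnmt. Pemt, which methylates phosphatidylethanolamine to phosphatidylcholine, differed by -0.105 and -0.111 on its 2 probes (limma adjusted p = 0.206 and 0.198). On the first of these, 5 of 7 knockout mice lay below every WT littermate. Nnmt methylates nicotinamide and was the most variable of the 10 genes among the WT littermates of the total line. Its log2 signal ran from 12.27 to 15.37 in that group at its brightest probe. At that probe its difference in total ChREBP-KO mice was 0.0206 with an interval from -0.653 to 0.695, too wide to tell a change from none.

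In ChREBPβ-deficient mice, limma placed 0 of the 10 genes above and 0 below their WT littermates with adjusted p below 0.05. Over all genes 0% were higher and 0.00417% lower, the latter being 1 gene. At an unadjusted p below 0.05, limma gave 0 members higher and 0 lower, and so did the exact Mann-Whitney test, with 0 and 0. Over all genes the unadjusted limma counts were 829 higher and 837 lower, or 3.46% and 3.49%, and the Mann-Whitney shares were 4.04% and 4.59%. The median log2 difference was 0.0602 over the 10 genes and -0.0035 over all genes.

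For the genes that were higher in total ChREBP-KO mice, the values in ChREBPβ-deficient mice were small. Cth had log2 signals of 13.83, 13.97 and 14.58 (lowest, median and highest) in ChREBPβ-deficient mice and 13.53, 13.80 and 14.84 in WT littermates, and its difference of 0.148 had an interval from -0.187 to 0.483 and ran from 0.0732 to 0.283 without single arrays. Cdo1 differed by 0.0748 (interval -0.0549 to 0.205) and 0.0349 (interval -0.109 to 0.179). Ahcy had 10.44, 10.64 and 10.79 against 10.08, 10.48 and 10.76, a difference of 0.15 (interval -0.0594 to 0.359). Without single arrays Ahcy ran from 0.0912 to 0.188, and Cdo1 from 0.0484 to 0.107 and from 0.00795 to 0.0872. The groups overlapped for each of these genes. Bhmt differed by 0.0109 and -0.00647 on the 2 bright probes, with intervals from -0.377 to 0.399 and from -0.177 to 0.164. The intervals show which differences these arrays could not tell from 0, and a missed threshold does not show that the groups were alike.

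Whether the effects of the 2 deficiencies differ was tested directly, as the log2 difference in total ChREBP-KO mice minus that in ChREBPβ-deficient mice, which uses the same mice as both comparisons. Of the 10 genes, 3 were higher and 0 lower, against 8.82% and 9.6% of all genes, and limma at an unadjusted p below 0.05 gave 4 and 1, against 16.9% and 16.2%. Cth gave 0.868 ± 0.236 (SE; limma adjusted p = 0.0109), and Cdo1 gave 0.389 ± 0.0915 (limma adjusted p = 0.00338) and 0.508 ± 0.101 (limma adjusted p = 0.000668). The remaining gene was Ahcy, at 0.444 ± 0.148 (limma adjusted p = 0.0389), close to the threshold. With slide as a fixed block neither Ahcy (0.348, adjusted p = 0.126) nor Cdo1 probe A_51_P489452 (0.351, adjusted p = 0.0762) passed, and Ahcy also missed the threshold without a filter (adjusted p = 0.0564) and with median signals scaled to the 75th percentile (0.0555). Leaving out any of 12 single arrays put Ahcy above it, with adjusted p up to 0.0743 over all 31 arrays left out in turn. These arrays were replicates 2, 4 and 8 of the ChREBPβ-line WT mice, replicate 5 of the ChREBPβ-deficient mice, replicates 1, 3, 4 and 5 of the total-line WT mice and replicates 4, 6, 7 and 8 of the total ChREBP-KO mice. Bhmt missed the threshold, at 0.76 (limma adjusted p = 0.0576) and 0.291 (limma adjusted p = 0.102). Bhmt probe A_55_P2103963 passed it with processed or median signals scaled to the 75th percentile (adjusted p = 0.0473 and 0.0427), with probes found on all 31 arrays (0.0488), in the deposited table (0.0307) and with scan day as a fixed block (0.0423). It also passed without ChREBPβ-line WT replicate 3 (adjusted p = 0.0356), total-line WT replicate 5, 7 or 8 (0.049, 0.0446 and 0.0456) or total ChREBP-KO replicate 7 (0.00701), and probe A_55_P2714597 without the last of these (0.0297).

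With scan day as a fixed block all 3 genes passed, at 0.854 for Cth (adjusted p = 0.0138), 0.383 and 0.502 for Cdo1 (0.00437 and 0.000907) and 0.463 for Ahcy (0.0291). Within scan day 1 none of the 3 genes passed the test, at 0.817 for Cth (adjusted p = 0.293), 0.312 and 0.386 for Cdo1 (0.172 and 0.0754) and 0.343 for Ahcy (0.522). Within scan day 2, Cth gave 0.855 (0.034) and Ahcy 0.591 (0.0177), while Cdo1 gave 0.437 and 0.602 (0.111 and 0.0555). Each value kept a positive sign on both days, and a single day holds fewer mice.

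The WT littermates of the total line were also set against those of the ChREBPβ line, since both differences above depend on them. Of the 10 genes, 0 were higher and 0 lower by limma with adjusted p below 0.05, against 9.93% and 11.4% of all genes. At an unadjusted p below 0.05, limma gave 0 higher and 2 lower, Cth and Cdo1, and the exact Mann-Whitney test 0 higher and 3 lower, Cth, Cdo1 and Pemt. Over all genes these shares were 18.4% and 18.7% by limma and 16.9% and 17.6% by the Mann-Whitney test. At the brightest probe, 10 of the 10 genes had a negative log2 difference, with a median of -0.125 against 0.00571 over all genes, although with slide as a fixed block those of Bhmt and Nnmt turned positive. Cth had the largest, at -0.393 (limma adjusted p = 0.0972), and 6 of 8 total-line WT mice lay below every ChREBPβ-line WT mouse. It was -0.259 without ChREBPβ-line WT replicate 2, and -0.486 without total-line WT replicate 2, where it passed the test (adjusted p = 0.0343).

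The group means of Ahcy, Cth and Cdo1, and of Bhmt at its 2 bright probes, were highest in total ChREBP-KO mice and lowest in their WT littermates. For Cth they were 14.53 ± 0.336 (SD, n = 7) in total ChREBP-KO, 14.05 ± 0.246 (n = 8) in ChREBPβ-deficient, 13.90 ± 0.404 (n = 8) in ChREBPβ-line WT and 13.51 ± 0.372 (n = 8) in total-line WT mice. For Cdo1 (A_51_P489452) they were 15.58 ± 0.133, 15.29 ± 0.127, 15.21 ± 0.133 and 15.12 ± 0.105 in the same order. For Ahcy they were 10.97 ± 0.205, 10.65 ± 0.105, 10.50 ± 0.204 and 10.38 ± 0.290. Over all 31 arrays without a block, neighbours among the 3 lower groups did not pass the test. With the replicate number as a block, Cth passed between the WT groups (-0.393, limma adjusted p = 0.0335). Total ChREBP-KO and ChREBPβ-deficient mice, which come from different lines, were not set against each other directly. The part of the low total-line WT values in the differences from total ChREBP-KO mice was not tested, and line and genotype cannot be told apart between lines.

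Pericentral hepatocyte markers moved with the total ChREBP-KO group, where 17.3% of all genes were higher and 17.1% lower. Of 8 pericentral hepatocyte markers, 5 were higher (Cyp1a2, Cyp2e1, Lgr5, Oat and Slc1a2) and 0 lower by limma in total ChREBP-KO mice, with a median log2 difference of 0.679. Their summed log2 level was 18.30 to 18.68 in total ChREBP-KO mice and 17.59 to 18.09 in WT littermates. Cyp2e1 was the brightest, and all 8 were well above background on all arrays. Between the WT groups, where 11.4% of all genes were lower, 2 of these markers were lower in the total line (Cyp2e1 and Oat), with a median of -0.307. Of 8 periportal markers, 0 were higher and 2 lower (Etnppl and Sds) in total ChREBP-KO mice, with a median of 0.0214. The summed level of the periportal markers was 18.02 to 18.64 against 18.00 to 18.59, and Pigr was the brightest. What part the pericentral and periportal markers have in the differences of the 10 genes was not tested.

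Markers of other tissues differed among the total-line WT mice or between the lines. Of all genes, 9.93% were higher and 11.4% lower in total-line than in ChREBPβ-line WT mice, and 17.1% were lower in total ChREBP-KO mice. Of 7 exocrine pancreas markers measured, 4 were lower in total ChREBP-KO mice and 4 were higher in total-line than in ChREBPβ-line WT mice. Their mean log2 signal was 11.63, 10.37 and 10.49 in total-line WT replicates 2, 7 and 8, and 8.381 to 9.284 on all other arrays, with a median of 8.731 over the 31 arrays. Their summed level ran from 13.62 to 15.19 over the 31 arrays, Cela1 was the brightest, and 2 of the 7 were well above background on all arrays. Without replicate 2, Cth, Cdo1, Ahcy and Bhmt still passed the test in total ChREBP-KO mice, with log2 differences of 1.11, 0.487 and 0.559, 0.672, and 0.756 and 0.283. Without all 3 of these mice, a choice made after seeing the data, the same 4 genes passed, with 1.14, 0.51 and 0.572, 0.721, and 0.911 and 0.35. Of 8 red blood cell markers, 6 were higher in total-line than in ChREBPβ-line WT mice, with a summed level of 17.85 to 18.39 against 16.53 to 17.60. Total ChREBP-KO mice had 17.54 to 18.59, with 1 of the 8 higher than in WT littermates (Alas2) and 0 lower, so both groups of the total line were high. Hba-a1 was the brightest, and 7 of the 8 were well above background on all arrays. Among the remaining lists, total ChREBP-KO mice had 2 of 9 hepatocyte markers higher (Cps1 and Ttr) and 2 of 6 stellate markers (Dcn and Reln). Also higher were 1 of 6 cholangiocyte markers (Epcam), 1 of 8 adipocyte markers (Car3), and 0 of 9 Kupffer cell and 0 of 6 endothelial markers. Car3 was the brightest adipocyte marker and so weighed most in the summed level of that list, which was 17.28 to 17.65 against 16.29 to 17.07 in WT littermates. The median log2 difference of the list was -0.0684. Its mean log2 signal overlapped between the groups, at 8.439 to 10.57 against 8.281 to 10.01. Of all genes 17.3% were higher, and with lists this short nothing about those cell types is drawn from the counts. Single mice stood apart, however. The mean log2 signal of the stellate list was 11.11, 10.75 and 10.19 in total ChREBP-KO replicates 1, 4 and 6, and at most 9.982 in the other groups. That of the cholangiocyte list was 9.33 and 8.407 in replicates 5 and 1, and at most 7.991 in the other groups. For the adipocyte list it was 10.57 in total ChREBP-KO replicate 6 and 8.439 to 8.825 in the rest of that group. Total-line WT replicates 5 and 2 had 10.01 and 9.796, and the rest of their group 8.281 to 8.62. The ChREBPβ-line groups ran from 8.751 to 10.11 on this list. Total ChREBP-KO replicates 1 and 5 were the mice more than 1 above the median of the stellate or cholangiocyte list. Without them, a choice made after seeing the data, Cth, Cdo1, Ahcy and Bhmt still passed, with 1.12, 0.485 and 0.559, 0.674, and 0.853 and 0.286. The adipocyte list was not used for this choice. Between the WT groups, Car3, Cidec and the periportal marker Hal were lower and Pecam1 higher in the total line. The part of these markers in the differences of the 10 genes was not tested.

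Probes named Gm4737 stood next to Ahcy in these data and were singled out after their values were seen. RefSeq places the gene Gm4737 on chromosome 16, but the array annotation places the 3 probes that carry its name on chromosome 2 (mm9), within 5803 bases of the Ahcy probe. They are not among the 16 probes, as membership went by name. In total ChREBP-KO mice the 3 probes gave log2 differences of 0.449 (limma adjusted p = 2.47e-05), 0.575 (limma adjusted p = 1.15e-05) and 0.556 (limma adjusted p = 0.000121), beside 0.594 for Ahcy. In ChREBPβ-deficient mice they gave 0.0866, 0.123 and 0.0981, beside 0.15 for Ahcy. Over the 31 arrays, with group means subtracted, their Pearson r with Ahcy was 0.829, 0.88 and 0.915 and Spearman rho 0.681, 0.804 and 0.794. The probe with r = 0.829 ranked 1 of 23965 genes in likeness to Ahcy on these same arrays. A p-value would take no account of that choice, and none is given. These 3 relations, computed after the values were seen, kept r of 0.698, 0.825 and 0.878 without the 2 arrays farthest from the median of Ahcy. Whether these probes read transcripts of Ahcy or of Gm4737 was not tested, as no genome sequence of the build of the probes (mm9) was used here. By the annotation they lie on the strand of the Ahcy probe and on both sides of it, 5504 and 5803 bases downstream and 3323 upstream. The r values are therefore not shown to join 2 genes. The probes of 0.449 and 0.575 were brighter than the Ahcy probe, with mean log2 signals of 17.11 and 14.83 against 10.97 in total ChREBP-KO mice.

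Correlations among the 10 genes were taken within groups, from mouse to mouse. Over the 31 arrays, with group means subtracted and the brightest probe of each gene, 21 of 45 pairs passed a permutation test of Pearson r after Benjamini-Hochberg adjustment over the 45 pairs, all 21 with positive r. By Spearman rho 12 pairs passed, and these 12 were among the 21. The median r was 0.432, beside 0.00117 between the 10 genes and all other genes and 0 over all pairs of the 23966 genes compared. Of the 21 pairs, 19 had r of the same sign on both scan days. Without the 2 arrays farthest from the median of the first gene of a pair, 8 of the 21 pairs still passed. The other 13 no longer did, with r from 0.192 to 0.534 and adjusted p from 0.0556 to 0.436, so that passing rests on those arrays for them. Within scan day 1, with 15 arrays, 7 of the 21 pairs passed, and within scan day 2, with 16 arrays, 0 passed.

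Cbs and Cth, which act in sequence in transsulfuration, gave the highest value, with r = 0.788 (permutation p = 1e-05, the smallest possible, adjusted p = 0.000225) and rho = 0.664 (permutation p = 0.00022, adjusted p = 0.00495). Here r was 0.671 without the 2 farthest arrays (adjusted p = 0.0153) and 0.922 within scan day 1 (adjusted p = 0.027), but 0.285 within scan day 2 (adjusted p = 0.494). Gnmt and Mat1a gave r = 0.76 (permutation p = 4e-05, adjusted p = 6e-04) and rho = 0.607 (permutation p = 0.00084, adjusted p = 0.00756), with 0.525 without the 2 farthest arrays (adjusted p = 0.0436). Within the days it was 0.78 and 0.733 and did not pass (adjusted p = 0.0528 and 0.0927). Both pairs join enzymes of neighbouring steps, but passing did not follow from that. Of other neighbouring steps, Cdo1 and Cth passed (r = 0.519), while Ahcy and Cbs (0.395) and Bhmt and Mat1a (-0.11) did not. Cbs and Nnmt, which are not neighbours, passed (0.656). Bhmt and Bhmt2, whose probes lie 39517 bases apart on chromosome 13 (mm9), gave r = 0.738 (permutation p = 1e-05, adjusted p = 0.000225) and rho = 0.599 (permutation p = 0.00051, adjusted p = 0.00756), with 0.541 without the 2 farthest arrays (adjusted p = 0.0153). Within the days it was 0.682 (adjusted p = 0.0495) and 0.801 (adjusted p = 0.263). Cth and Gnmt took part in 7 passing pairs each, and Bhmt in 1.

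**Figure D3:**
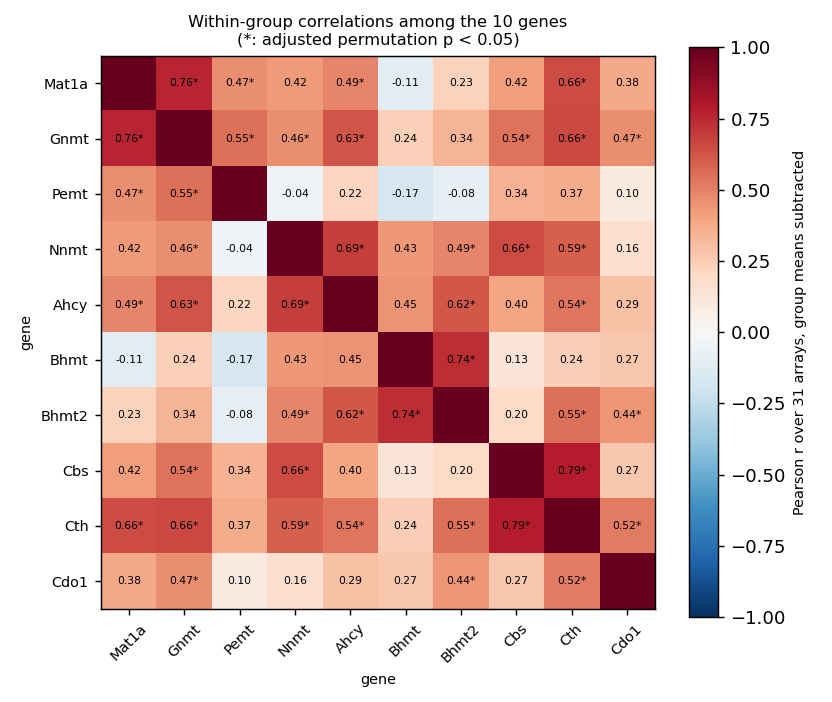
Pearson r between the 10 genes (both axes) over 31 arrays with group means subtracted, in colour and as numbers, with an asterisk where the adjusted permutation p is below 0.05. The highest value is 0.788, for Cbs and Cth, and the lowest is -0.166, for Bhmt and Pemt.

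Other genes were ranked by the same Pearson r with each member over the 31 arrays, as a description without a test among 23965 genes. Cth was most like Hpd (0.839), 1810013D15Rik (0.838) and Cps1 (0.826), and Cbs most like Pnldc1 (0.865), Amdhd1 (0.864) and Agxt (0.861). Gnmt was most like Afmid (0.908), Aldh1b1 (0.818) and Dpyd (0.81), and Mat1a most like Slco1a4 (0.834), Slc16a5 (0.828) and Afmid (0.827). These values were high for several genes at once, so a high r does not single out a pair. After the brightest probe named Gm4737, Ahcy was most like an intergenic RNA probe of chromosome X (0.757) and Uroc1 (0.751). Bhmt was most like Rbm44 (0.83), Bhmt2 (0.738) and a transcript without a gene symbol (0.684), and Bhmt2 most like Sdc2 (0.748), Antxr2 (0.745) and Bhmt. Cdo1 had lower values throughout, led by Arhgef19 (0.653), Defb1 (0.648) and Slc35g3 (0.638). Nnmt was most like Cyp3a13 (0.868), Steap4 (0.841) and Aass (0.836), and Pemt most like Gm13125 (0.705), Pm20d1 (0.703) and Idh1 (0.693).

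Genes of the surrounding pathways were described from 7 lists with 64 measured genes. In total ChREBP-KO mice 18 were higher and 16 lower by limma, where all genes gave 17.3% and 17.1%, and their median log2 difference was -0.00133. In ChREBPβ-deficient mice 0 were higher and 0 lower by limma, with 9 and 3 at an unadjusted p below 0.05 and 9 and 3 by the exact Mann-Whitney test, where all genes gave 3.46% and 3.49%, and 4.04% and 4.59%. The list of choline and betaine oxidation, which also holds Chka and Pcyt1a of phosphatidylcholine synthesis and the sarcosine oxidising Sardh and Pipox, gave 4 of 7 higher and 0 lower in total ChREBP-KO mice. They were Sardh (0.42), Pipox (0.374), Aldh7a1 (0.369) and Chdh (0.257, 1 of 4 probes), with adjusted p between 9.9e-07 and 0.00605. Between the WT groups, 4 of these 7 were lower in the total line (Chdh, Pcyt1a, Pipox and Sardh) and 1 higher (Chka), with a median of -0.186. In that comparison 11.4% of all genes were lower and 9.93% higher. Of 11 genes on the list from cysteine to taurine, sulfate and sulfide, 4 were higher and 2 lower in total ChREBP-KO mice. Suox, the sulfite oxidase, differed by 0.452 and Tst by 0.364, while Got1 fell by 0.866 and Csad, which makes hypotaurine from the product of Cdo1, fell by 0.762. Between the WT groups, 4 of these 11 were lower in the total line (Fmo1, Got1, Sqrdl and Suox) and 1 higher (Csad).

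The other lists went both ways in total ChREBP-KO mice. Of 6 glutathione synthesis genes 3 were higher and 1 lower, with Gclc at 0.429, Oplah at 0.4 and Gclm at 0.175, and Gsr at -0.382. Of 16 folate and glycine genes 2 were higher and 5 lower, with Aldh1l1 at -1.04 (1 of 2 probes), Mthfs at -0.487 (1 of 3), Gldc at -0.453 (1 of 2) and Slc19a1 at -0.417 (1 of 2). Among other small-molecule methyltransferases, Inmt was higher at 0.957 and Tpmt at 0.468, and As3mt was lower at -0.836. Of 5 genes of the nicotinamide branch 1 was higher, Aox3 at 0.87, and 2 lower, Aox1 at -0.357 and Nmnat1 at -0.206. Of 13 other methionine cycle and salvage genes 2 were higher and 4 lower, with Mat2b at 0.339 (1 of 3 probes), Adi1 at 0.337, Ahcyl2 at -0.452 (2 of 4) and Mtap at -0.358 (1 of 2). Each value is a log2 difference that passed the limma test. Some of these probes were dim. Mean log2 signal was 5.934 for Mthfs, 6.155 for Mat2b and 7.036 for Ahcyl2, where array medians were 7.504 to 7.511 in the deposited table. The probes of Mat2b, Ahcyl2 and Slc19a1 were well above background on 27, 26 and 25 of the 31 arrays. Between the WT groups, which share the total-line WT mice with that comparison, Ahcyl2, Mat2a, Mtap, Gclm, Gss and Mthfd2 were higher in the total line and Adi1, Mat2b, Oplah, Mthfs and Hnmt lower.

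The bases read by 3 probes are shown, as the values of Ahcy and Bhmt rest on them and the probes named Gm4737 varied with Ahcy. They are given 5′ to 3′ as on the array. The capitals mark the last 3 bases of the Bhmt probe, which read as a stop codon in the frame that starts at its first base.
Ahcy probe A_52_P176160, chr2:154891321-154891380 (mm9, minus strand): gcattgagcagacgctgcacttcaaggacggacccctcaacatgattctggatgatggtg
Gm4737 probe A_55_P2031100, chr2:154894644-154894703 (mm9, minus strand): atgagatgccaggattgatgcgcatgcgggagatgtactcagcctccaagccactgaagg
Bhmt probe A_55_P2103963 (minus strand of chromosome 13): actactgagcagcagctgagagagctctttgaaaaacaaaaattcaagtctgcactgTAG

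RefSeq promoter windows of 300 bases (GRCm38.p6), from 250 bases before to 50 after the start, were at hand for 6 of the 10 genes: Ahcy, Bhmt, Bhmt2, Cbs, Gnmt and Pemt. They were searched on both strands for the E-box CACGTG, a motif to which ChREBP-type factors bind, for a pair of E-boxes 5 bases apart, and for the D-box letters TTATGTAA and TTACGTAA. CACGTG was found in 1 of the 6 genes, Cbs, and in 7.15% of all 32851 windows. The pair was found in 0 windows, and the D-box letters in 0.938% and 0.119% of windows and in 0 of the 6 genes. Cbs, with the match, did not pass the test in either comparison, whereas Ahcy and Bhmt, without it, passed it in total ChREBP-KO mice. A match is only a match of letters, and a window without one says nothing about the factor. The 250 bases before the start are shown for these 3 genes, with the E-box in capitals.
Cbs promoter, chr17:31637206-31637455 (GRCm38.p6, minus strand): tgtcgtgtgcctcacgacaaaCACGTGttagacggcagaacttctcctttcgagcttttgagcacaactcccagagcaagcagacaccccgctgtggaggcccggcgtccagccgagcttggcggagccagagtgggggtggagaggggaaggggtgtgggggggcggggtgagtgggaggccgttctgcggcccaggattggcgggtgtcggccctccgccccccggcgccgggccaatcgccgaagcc
Ahcy promoter, chr2:155074498-155074747 (GRCm38.p6, minus strand): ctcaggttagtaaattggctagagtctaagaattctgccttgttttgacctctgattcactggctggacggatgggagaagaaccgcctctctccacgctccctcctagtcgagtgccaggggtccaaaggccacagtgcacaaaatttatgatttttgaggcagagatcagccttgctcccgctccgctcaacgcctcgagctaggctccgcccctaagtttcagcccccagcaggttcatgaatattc
Bhmt promoter, chr13:93637759-93638008 (GRCm38.p6, minus strand): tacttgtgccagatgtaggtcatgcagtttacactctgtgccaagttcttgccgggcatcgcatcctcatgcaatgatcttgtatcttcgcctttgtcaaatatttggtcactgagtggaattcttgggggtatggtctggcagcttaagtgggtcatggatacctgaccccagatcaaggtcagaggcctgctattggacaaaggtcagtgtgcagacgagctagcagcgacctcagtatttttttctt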

How the data were processed

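Raw spot values were the median pixel intensity of each array, deposited by the authors as scanner output of Agilent Feature Extraction 10.10.1.1, and the authors' processing notes name limma. Following the study's methods, spots were kept when found, above background and not controls on at least 26 arrays or on 6 arrays of a group. The threshold of 26 was kept, although the study set it for more arrays than the 31 used here. Values were log2-transformed, a step that the study's methods do not name. As in the study, they were quantile-normalised and the median was taken over repeated probe names. The software was R 4.3.3 with limma 3.58.1 and version 1.17.8 of data.table, and Python 3.11.15 with matplotlib 3.10.9. This left 36059 probes of 23968 genes. The table deposited by the authors was found to be on a log2 scale by comparison with these values (Pearson r = 0.999995 over 36057 shared probes, 50 missing values, column medians 7.504 to 7.511), and it was used as an alternative.

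All 4 groups entered 1 limma fit (lmFit, contrasts, eBayes) with Benjamini-Hochberg adjustment over all probes and a threshold of 0.05. A gene counted as passing when at least 1 probe passed. Gene medians and correlations used the probe of highest mean signal. Correlations used 100000 permutations within groups, and for a part of the arrays the group means of those arrays were subtracted. All 16 probes were well above background and none was saturated on the 31 arrays. Genes were named as the 10 members, up to 4 passing genes of each related list by size of difference, the 3 genes most like each member, and Mlxipl; 1 gene of the related lists that met this rule is not reported here. The members and lists were chosen with earlier results of these data known. Alternatives covered signal, scaling, background correction, filter, slide, scan day, replicate number, moderation, test, threshold, probe and single arrays. Total ChREBP-KO replicate 3 was not analysed here.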

Additional observations from a re-analysis of the deposited data

Results flagged for a closer look

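In 10 of 64 groups tested, 16 probes in 4 groups each, 1 mouse lay far from the others of its group by Dixon's criterion, which chance alone meets in about 1 in 20 groups. These 10 involved 9 of the 31 arrays. Among ChREBPβ-line WT mice, replicate 2 was high for Cth (log2 signal 14.84, next 13.98) and for Mat1a (14.73, next 14.17), replicate 3 was low for Bhmt2 (13.90), replicate 8 low for Pemt (13.75, A_55_P1970846) and replicate 7 high for Cdo1 (14.54, A_55_P2503051). ChREBPβ-deficient replicate 2 was high for Cbs (16.80). Among total-line WT mice, replicate 2, with the highest pancreas markers, was high for Gnmt (16.76), replicate 5 low for Cdo1 (13.78, A_55_P2503051) and replicate 1 low for Bhmt (17.16, next 17.69, A_55_P2714597). Total ChREBP-KO replicate 7 was low for the same Bhmt probe (17.61, next 17.93). What set these mice apart was not tested.

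The effect of total loss and the effect of ChREBPβ loss differed, by limma's test of the difference itself, for Cth (log2 0.868), Cdo1 (0.389 and 0.508 on its 2 probes) and Ahcy (0.444). With slide as a fixed block, Ahcy (adjusted p = 0.126) and 1 of the Cdo1 probes (0.0762) no longer passed. The 2 effects were measured against different WT groups, and the part of the lower signals in the total-line WT mice was not tested.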

How the results depend on the processing

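The counts of genes were recomputed under 21 alternatives (18 for the difference of effects) and without each of the 31 arrays in turn. All 16 probes were well above background on all arrays, and the effect of the number of arrays was not tested. Within scan day 1, 10 related genes were lower in total ChREBP-KO mice and 0 of the 10 genes passed the test for the difference of effects. Within scan day 2, 7 related genes were higher. By the exact Mann-Whitney test at unadjusted p below 0.05, related genes numbered 9 higher and 3 lower in ChREBPβ-deficient mice, and of the 10 genes 1 was lower in total ChREBP-KO mice and 3 were lower in total-line WT mice. With a 1.5-fold minimum, 2 related genes were higher and 4 lower in total ChREBP-KO mice, and 1 gene was higher for the difference of effects. Without total-line WT replicate 2, the mouse with the highest pancreas markers, 1 gene, Cth, was lower in total-line WT mice. The causes of these shifts were not tested, except that a single scan day holds fewer arrays.

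The replicate numbers were not taken to pair the mice, since not every same-numbered pair correlated above 0.1, although those of the ChREBPβ line often did. Correlations of same-numbered mice ran from -0.156 to 0.533 in the ChREBPβ line, with 6 of 8 above 0.1 and 4 of 8 mice closest to their own number, and from -0.215 to 0.241 in the total line, with 2 of 7 above 0.1 and 1 of 7 closest to its own number. With the replicate number as a block, 1 gene, Cth, was lower in total-line WT mice (log2 difference -0.393, limma adjusted p = 0.0335), and the other counts of the 10 genes moved by less than 1.5 times.

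Over the single arrays left out, the counts were 4 to 5 higher and 0 to 0 lower in total ChREBP-KO mice, 2 to 4 higher and 0 to 1 lower for the difference of effects, and 0 to 1 lower in total-line WT mice. Related genes numbered 16 to 20 higher and 14 to 17 lower in total ChREBP-KO mice. Bhmt2 passed the test in total ChREBP-KO mice without total ChREBP-KO replicate 7 (0.193, limma adjusted p = 0.034). Pemt passed it as lower for the difference of effects without ChREBPβ-line WT replicate 2 (-0.248, adjusted p = 0.0424) or total ChREBP-KO replicate 2 (-0.251, adjusted p = 0.0409), and as lower in total-line WT mice without ChREBPβ-line WT replicate 8 (-0.16, adjusted p = 0.0253). Cth passed it there without total-line WT replicate 2 (-0.486, adjusted p = 0.0343).

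Of the values that had passed the test, 12 of 124 no longer did in total ChREBP-KO mice and 13 of 71 no longer did for the difference of effects under the alternatives. Without single arrays these numbers were 0 of 186 and 12 of 124, the latter all for Ahcy. None of the log2 differences that passed the test changed sign under any alternative or without any array. Differences that had not passed it did. Apart from single arrays left out, this happened for 25 of 330 values in ChREBPβ-deficient mice, 23 of 206 in total ChREBP-KO mice, 14 of 211 for the difference of effects and 6 of 330 between the WT groups, and none of the values of opposite sign passed the test. With processed signals scaled to the 75th percentile, the values of opposite sign were Bhmt2 -0.0115, Mat1a -0.0281, Cbs -0.0149, Bhmt -0.0451, Cdo1 -0.0227 in ChREBPβ-deficient mice, and Bhmt 0.00534, Nnmt -0.00399 and -0.00081 in total ChREBP-KO mice. With median signals scaled to the 75th percentile, the values of opposite sign were Bhmt2 -0.0114, Mat1a -0.0232, Cdo1 -0.00157 and -0.0284, Cbs -0.00999, Bhmt -0.0543 in ChREBPβ-deficient mice, and Bhmt 0.0428, Nnmt -0.0274 and -0.00901 in total ChREBP-KO mice. In the deposited table, the values of opposite sign were Bhmt -0.00262 in ChREBPβ-deficient mice, and Gnmt 0.0131 for the difference of effects. With slide as a random block, the values of opposite sign were Nnmt -0.0161 and -0.0194 in total ChREBP-KO mice. With slide as a fixed block, the values of opposite sign were Mat1a -0.0239, Bhmt 0.016 and 0.0421 in ChREBPβ-deficient mice, and Gnmt -0.0929, Mat1a -0.0116, Nnmt -0.0338 and -0.462 and -0.466 in total ChREBP-KO mice, and Bhmt2 -0.0182, Bhmt -0.204, Nnmt -0.166 and -0.0629 for the difference of effects, and Bhmt 0.0561 and 0.0179, Nnmt 0.184 and 0.131 between the WT groups. With scan day as a fixed block, the values of opposite sign were Bhmt -0.0136 in ChREBPβ-deficient mice. Within scan day 1, the values of opposite sign were Pemt -0.0266, Nnmt 0.179 and 0.313 and 0.286, Bhmt 0.0758 in ChREBPβ-deficient mice, and Gnmt -0.0356, Mat1a -0.207, Bhmt 0.166, Nnmt -0.0261 and -0.0446 in total ChREBP-KO mice, and Mat1a -0.219, Nnmt -0.035 and -0.339 and -0.33 for the difference of effects, and Bhmt -0.0469 between the WT groups. Within scan day 2, the values of opposite sign were Bhmt2 -0.0162, Cbs -0.0221, Bhmt -0.218, Cdo1 -0.0372 in ChREBPβ-deficient mice, and Gnmt 0.163, Bhmt -0.0619 for the difference of effects. With the replicate number as a block, the values of opposite sign were Nnmt -0.0256 and -0.034 in total ChREBP-KO mice. Without total-line WT replicate 2, the values of opposite sign were Gnmt 0.0427 for the difference of effects. Without the 3 total-line WT mice with raised pancreas markers, the values of opposite sign were Cbs 0.011, Bhmt 0.0911 in total ChREBP-KO mice, and Gnmt 0.0777 for the difference of effects, and Bhmt -0.014 between the WT groups. Without the 2 knockout mice with raised stellate or cholangiocyte markers, the values of opposite sign were Bhmt 0.0918 in total ChREBP-KO mice, and Gnmt 0.065 for the difference of effects. Without single arrays, the values that crossed 0 ranged over -0.0167 to 0.131 for Mat1a in ChREBPβ-deficient mice, -0.0212 to 0.104 for Cbs in ChREBPβ-deficient mice, -0.0695 to 0.117 for Bhmt in ChREBPβ-deficient mice, -0.0444 to 0.0307 for Bhmt in ChREBPβ-deficient mice, -0.0805 to 0.08 for Bhmt in total ChREBP-KO mice, -0.233 to 0.21 for Nnmt in total ChREBP-KO mice, -0.209 to 0.212 for Nnmt in total ChREBP-KO mice, -0.119 to 0.0427 for Gnmt for the difference of effects, -0.0593 to 0.126 for Mat1a for the difference of effects, -0.00171 to 0.17 for Bhmt for the difference of effects, -0.418 to 0.0248 for Nnmt between the WT groups. The signs of these differences are not settled by these data, and the causes were not tested.

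Of the 45 pairs of the 10 genes, 21 passed the permutation test with positive r over all arrays. The number was 9 without the 2 arrays farthest from the median, 10 within scan day 1 and 0 within scan day 2. These tests were added with the r values known. The sign turned for 1, 4 and 13 of the 45 pairs, and none of these passed. Among the 21 pairs this concerned, within scan day 2, Cbs and Gnmt (r = -0.203) and Gnmt and Nnmt (r = -0.422). A single day holds fewer arrays; other causes were not tested.

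Values added after seeing the data include fits without the 3 total-line WT mice with raised pancreas markers or the 2 knockout mice with raised stellate or cholangiocyte markers, and Mlxipl under each alternative. Mlxipl stayed lower in total ChREBP-KO mice throughout. In ChREBPβ-deficient mice it no longer passed in 7 of 21 alternatives: -0.518 with slide as a fixed block, -0.302 and -0.57 within scan days 1 and 2, and, at the unchanged -0.455, with the replicate number as a block, with only the 2 groups, by the adjusted Mann-Whitney test and with a 1.5-fold minimum. Without single arrays it ranged from -0.486 to -0.42 and did not pass in 4 of 31 fits. The causes were not tested, except that a single day holds fewer arrays. Without the 3 WT mice, Bhmt also passed for the difference of effects (0.9, adjusted p = 0.0371).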
